A study of Mus musculus with 4 samples.

Results

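The endocannabinoid genes described here are Cnr1, Dagla, Daglb, Napepld, Mgll, Abhd6 and Faah, which encode the main brain cannabinoid receptor and the enzymes that make and break down its lipid ligands. They were chosen by symbol, and the GENCODE annotation of GRCm38 tied each symbol to 1 Ensembl identifier, giving 7 of the 53465 identifiers in the count table. All 7 passed the filter on low counts. Poly(A) RNA was sequenced from the lateral habenula of C57BL/6 mice, a small epithalamic nucleus that sends forebrain signals on to midbrain monoamine neurons. One group of mice had been group-housed and the other socially isolated, with 2 libraries in each. The labels name no genotype, agent or transgene in either group, and the sources used here give no age, sex or length of isolation. The comparison asks whether isolation from other mice changed the level of these transcripts.

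Endocannabinoids are lipids that neurons release from their membranes on demand, mostly from the postsynaptic side. They travel back across the synapse to the CB1 receptor on axon terminals, where they reduce transmitter release. The better known ligands are 2-arachidonoylglycerol (2-AG), made by diacylglycerol lipases and removed mainly by monoacylglycerol lipase, and anandamide, made in part by NAPE-PLD and removed by fatty acid amide hydrolase. In the lateral habenula this signalling is known as one route by which stress can change synaptic strength.

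Library totals ran from 20897605 to 26428152 counts. Between 24301 and 25616 genes had a count in a library, and 17528 were tested. CPM values are counts scaled to a common effective library size by TMM, a trimmed-mean scaling, and 3 counts corresponded to 0.113 to 0.146 CPM. Of the 8 lateral habenula markers listed, all were present, among them Gpr151 at 352 to 425.6 CPM and Pou4f1 at 129 to 162 CPM. The list summed to 1456 to 1546 CPM in group-housed and 1494 to 1618 CPM in isolated libraries, with 4 genes higher and 4 lower. The 2 sides were not alike. All 4 higher genes had an unadjusted p below 0.05 in edgeR's quasi-likelihood test, and 0 of the lower ones did. Their log2 fold changes were 0.38 (Vav2), 0.24 (Pou4f1), 0.24 (Sstr2) and 0.19 (Gpr151), each without overlap of the groups. Of the lower genes only Gap43 (-0.14) had no overlap. The smallest adjusted p of the list was 0.178, so none was called. Medial habenula markers were present too, at 1599 to 1681 CPM in group-housed and 1991 to 2002 CPM in isolated libraries. The libraries therefore cannot be taken as lateral habenula alone. The labels do not say whether a library came from 1 animal or a pool, so every p-value measures only the spread between these libraries, which may be technical. In bulk tissue, fewer cells of a type and less RNA per cell cannot be told apart.

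The promoters of Cnr1, Mgll and Napepld, the 3 genes with an unadjusted p below 0.05 between the housing groups, are shown to place these genes in the genome. Each line gives the 100 bases just before the farthest upstream RefSeq start (GRCm38.p6), 5′ to 3′ on the gene's own strand. Capitals mark the GC box, GGGCGG or its reverse complement CCGCCC, a motif bound by Sp1-family factors.
Cnr1: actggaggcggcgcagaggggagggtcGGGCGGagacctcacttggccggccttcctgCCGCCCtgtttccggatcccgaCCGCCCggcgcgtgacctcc
Mgll: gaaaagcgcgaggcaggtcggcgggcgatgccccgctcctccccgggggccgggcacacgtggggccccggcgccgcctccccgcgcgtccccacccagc
Napepld: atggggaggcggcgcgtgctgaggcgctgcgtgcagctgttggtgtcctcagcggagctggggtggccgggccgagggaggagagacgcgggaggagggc

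The Cnr1 stretch lies at chr4:33924164-33924263 on the plus strand, the Mgll stretch at chr6:88724312-88724411 on the plus strand and the Napepld stretch at chr5:21701623-21701722 on the minus strand. All 3 windows are rich in G and C. Over the 250 bases before the start, G and C made up 79.2% in Cnr1, 68.0% in Mgll and 69.6% in Napepld, against a median of 52.0% over 27025 mouse promoters. The Cnr1 window of 250 bases held 5 GC boxes, 3 of them in the bases printed, and 33.0% of all promoters held at least 1 on either strand. No GC box was found in the Mgll or Napepld window. The other motif searched, the TATA box TATAAA or its reverse complement TTTATA, was in none of these 3 windows and in 13.0% of all promoters. RefSeq lists 3 starts for Cnr1 and 2 for Mgll, and counts per gene do not tell which start was used. Promoter sequences were matched for 6 of the 7 members. Of those not printed, the Faah window of 250 bases held 2 GC boxes, and the Daglb and Abhd6 windows held 0.

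Mgll, the monoacylglycerol lipase that ends 2-AG signalling, was the most abundant of these transcripts per length. Levels between genes are given as RPKM, that is, CPM divided by the summed length of all annotated exons in kilobases. Mgll averaged 26.8 RPKM over the 4 libraries (range 24.3 to 29.6), above 89.3% of tested genes. Dagla, the diacylglycerol lipase that makes most 2-AG in the adult brain, followed at 15.4 RPKM (14.8 to 16.3), and Abhd6, a membrane hydrolase that degrades a smaller part of 2-AG, at 15.4 RPKM (14.8 to 16.6). Those ranges overlapped, so Dagla and Abhd6 did not differ in level beyond their spread. Cnr1, which encodes CB1, came next at 8.52 RPKM (7.38 to 9.50).

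Faah, the amidase that degrades anandamide, averaged 6.65 RPKM (6.47 to 6.87) and Napepld, one of the enzymes that make it, 5.36 RPKM (4.75 to 5.90). Daglb, the second diacylglycerol lipase, had the lowest level at 4.66 RPKM (4.50 to 4.95), and its range overlapped only the lower end of that of Napepld. The place of Faah and Daglb depended on the length used. Their annotated exons sum to 7834 and 9567 bases but their longest protein-coding transcripts have 3827 and 4651, and per length of those transcripts Faah stood at 13.6 and Daglb at 9.58 RPKM, both above Cnr1 at 9.45. By that measure the ranges of Daglb and Cnr1 overlapped. Mgll stayed highest under each of the 3 lengths tried, with Dagla and Abhd6 next.

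**Figure D1:**
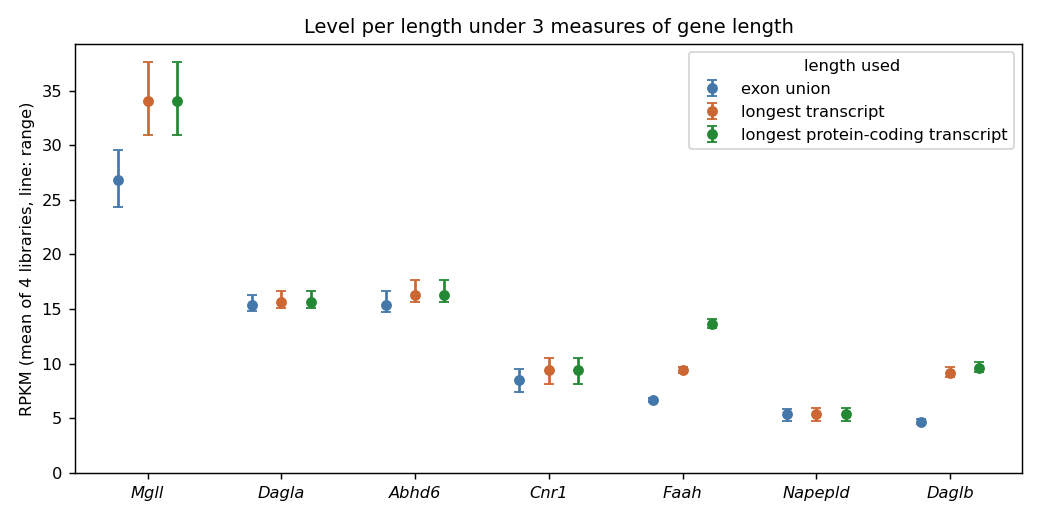
Level per length of the 7 genes on a linear axis in RPKM, under 3 measures of gene length. Points are means of 4 libraries and lines their range. Mgll is highest under each measure and moves from 26.8 to 34.1 RPKM. In proportion Faah and Daglb move the most, from 6.65 to 13.6 and from 4.66 to 9.58 RPKM.

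Between the housing groups the differences were small, and none of the 7 genes passed the test. Each was compared with edgeR's quasi-likelihood test over all 17528 genes with Benjamini-Hochberg adjustment, under which 2 genes (0.0114%) were called anywhere in the transcriptome. At an unadjusted p below 0.05 there were 3 of the 7, where the share over all tested genes was 5.09%. Cnr1 was the 1 higher in isolated libraries (2.83% of all tested genes) and Mgll and Napepld were the 2 lower ones (2.26%). The 7 were chosen with earlier results of these data known, so such shares do not test them as a set. The smallest adjusted p among the 7 was 0.780. DESeq2, edgeR's exact test and limma-voom also called 0 of the 7, while calling 0.359%, 0.468% and 0.0114% of the genes they tested.

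The receptor transcript was the only one of the 7 with a higher mean in isolated libraries. Cnr1 (ENSMUSG00000044288, GRCm38 chromosome 4 from 33924593 to 33948831, plus strand, protein-coding) measured 47.5 and 53.8 CPM in group-housed replicates 1 and 2 and 61.2 and 57.0 CPM in isolated replicates 1 and 2. The groups did not overlap, with isolated on top, an order that 17.4% of all tested genes showed. The group means were 50.7 ± 4.43 and 59.1 ± 3.01 CPM (SD, n = 2 per group), a log2 fold change of 0.22 (SE 0.08, 95% interval 0.04 to 0.40, edgeR adjusted p = 0.872). Group-housed replicate 1 was the lowest of the 4. Without it the log2 fold change was 0.14, and without isolated replicate 1, the highest, it was 0.17. It was 0.31 without group-housed replicate 2 and 0.27 without isolated replicate 2. With all 4 libraries the unadjusted p was 0.0245 in edgeR's quasi-likelihood test, 0.0234 in its exact test, 0.026 in limma-voom and 0.0562 in DESeq2. No annotated exon of another gene overlaps Cnr1.

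The 3 synthesis genes had lower means in isolated libraries. Dagla (ENSMUSG00000035735, chromosome 19 from 10245265 to 10304877, minus strand) measured 86.3 and 93.6 CPM in group-housed and 88.5 and 85.1 CPM in isolated libraries. The groups overlapped, with means of 89.9 ± 5.14 and 86.8 ± 2.45 CPM (SD, n = 2 per group). Its log2 fold change was -0.05 (SE 0.07, 95% interval -0.20 to 0.10, edgeR adjusted p = 1.0).

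Daglb (ENSMUSG00000039206, chromosome 5 from 143464584 to 143505942, plus strand) measured 47.4 and 44.1 CPM in group-housed and 43.8 and 43.0 CPM in isolated libraries. The isolated values were just the lower pair, as they were for 16.3% of all tested genes. The log2 fold change was -0.08 (SE 0.07, 95% interval -0.24 to 0.09, edgeR adjusted p = 1.0). Daglb shares 2309 of its exon bases (24.1%) with exons of Rac1, a small GTPase gene on the other strand that held 5691 to 6819 counts a library. No source used here states whether counting used strand, so the Daglb counts are uncertain to that extent.

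Napepld had the lowest fold change of the 7. Napepld (ENSMUSG00000044968, chromosome 5 from 21662901 to 21701396, minus strand) measured 22.3 and 23.3 CPM in group-housed and 20.3 and 18.8 CPM in isolated libraries, so the groups did not overlap. The means were 22.8 ± 0.720 and 19.6 ± 1.08 CPM (SD, n = 2 per group), a log2 fold change of -0.22 (SE 0.09, 95% interval -0.43 to -0.02, edgeR adjusted p = 0.933). It was also the member with the fewest reads, 458 to 600 counts a library. Without 1 library the log2 fold change ran from -0.28 to -0.17. With all 4 libraries the unadjusted p was 0.0371 in edgeR's quasi-likelihood test, 0.0365 in limma-voom, 0.0538 in edgeR's exact test and 0.133 in DESeq2. With library totals as the only scaling the quasi-likelihood test gave 0.0563.

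Mgll had the smallest p of the 7. This gene (ENSMUSG00000033174, chromosome 6 from 88724412 to 88828360, plus strand) held 2898 to 3862 counts a library and measured 141 and 150.1 CPM in group-housed and 123 and 129 CPM in isolated libraries. The isolated values were both the lower ones. The means were 145.6 ± 6.35 and 126 ± 4.12 CPM (SD, n = 2 per group), a log2 fold change of -0.21 (SE 0.06, 95% interval -0.35 to -0.06, edgeR adjusted p = 0.780), or 0.867-fold. Leaving out a library gave log2 fold changes from -0.25 to -0.17. An antisense gene, Gm26588, overlaps 167 (3.29%) of the Mgll exon bases and held 97 to 111 counts a library.

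The remaining breakdown genes differed little. Abhd6 (ENSMUSG00000025277, chromosome 14 from 8002902 to 8056763, plus strand) measured 39.3 and 35.1 CPM in group-housed and 34.9 and 36.0 CPM in isolated libraries, and the groups overlapped. Its log2 fold change was -0.07 (SE 0.08, 95% interval -0.25 to 0.12, edgeR adjusted p = 1.0), and without group-housed replicate 1 it was 0.02. The Faah transcript varied least of all 7 between libraries. It (ENSMUSG00000034171, chromosome 4 from 115967145 to 116017926, minus strand) measured 52.5 and 53.8 CPM in group-housed and 50.7 and 51.5 CPM in isolated libraries. Although the isolated values lay below the group-housed ones, the log2 fold change was only -0.06 (SE 0.07, 95% interval -0.21 to 0.09, edgeR adjusted p = 1.0).

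**Figure D2:**
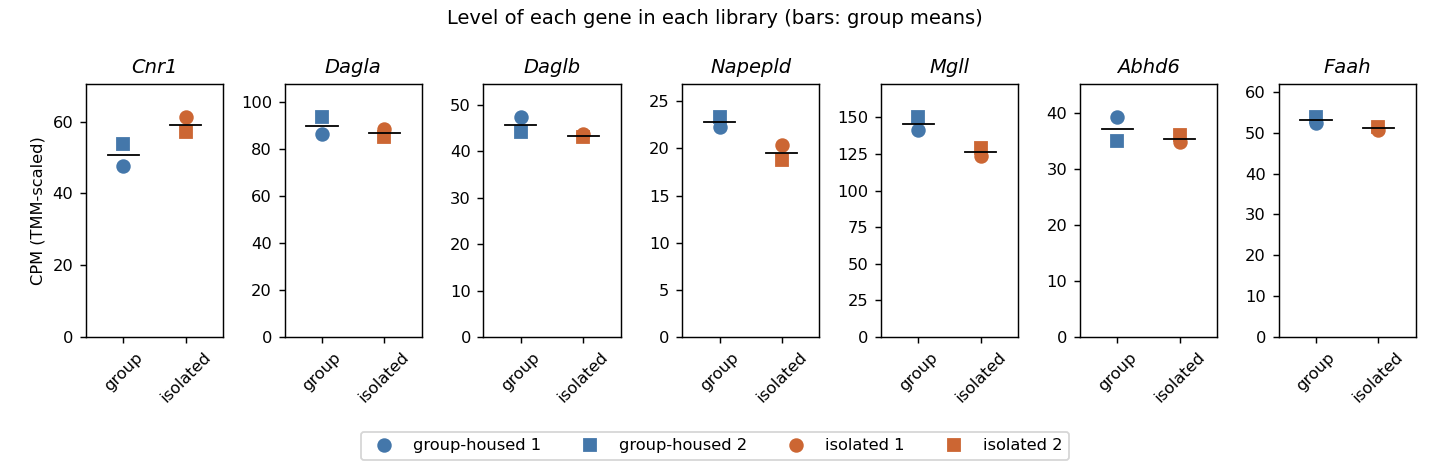
CPM of the 7 genes in the 4 libraries, with a linear axis from 0 in each panel. Points are libraries and bars group means (n = 2). Cnr1 runs from 47.5 to 61.2 CPM with the isolated libraries on top, and Mgll and Napepld have the isolated libraries at the bottom.

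By direction, 6 of the 7 had a lower mean in isolated libraries, where 48.8% of all tested genes did. Here too the share does not test the 7 as a set. Their median log2 fold change was -0.07, beside 0.0033 over all tested genes. The groups did not overlap for 4 genes with isolated below (Mgll, Napepld, Daglb and Faah), an order that 16.3% of all tested genes showed, and for Cnr1 with isolated above (17.4%). Without group-housed replicate 1 the number with a lower mean was 5.

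Each interval is for its gene alone. Across the 7, the intervals as folds reached from 0.743 (Napepld) to 1.32 (Cnr1), so a 1.5-fold difference in either direction lies outside all 7. In simulated data with these library sizes and 200 genes changed at once, the same test recovered 161 of the 200 at 1.5-fold (80.5%). At 1.2-fold it recovered 1 of 200 (0.5%). The adjustment is looser when many genes change, and only 2 genes were called in the measured data. The simulated shares therefore do not give the chance of finding a change in 1 of these 7 genes. The folds of Cnr1 (1.17), Mgll (0.867) and Napepld (0.857) were each nearer to 1 than a 1.2-fold change.

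Ratios of transcripts within a library do not depend on the scaling of that library. The ratio of Mgll to Dagla, 2-AG breakdown against synthesis, was 1.85 and 1.82 per length in group-housed and 1.58 and 1.72 in isolated libraries. The isolated values were both the lower ones. For anandamide the order was the opposite, with a Faah to Napepld ratio of 1.19 and 1.17 in group-housed and 1.26 and 1.39 in isolated libraries. Dagla to Daglb was 3.03 and 3.53 in group-housed and 3.37 and 3.29 in isolated libraries, with overlap. An exact permutation test of 2 against 2 libraries cannot give a 2-sided p below 0.333, so these ratios are values without a test.

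Of 120 other tested genes on the pathway and marker lists, Homer2 had the profile nearest to that of Cnr1. Likeness was the root mean square difference of log2 CPM, each gene centred on its own mean, over the 4 libraries. It was 0.0542 for Homer2, a postsynaptic scaffold gene, 0.0811 for the somatostatin receptor gene Sstr2 and 0.0820 for the neuronal gene Rbfox3. Nearest to Mgll were Abhd4 (0.0547), which encodes an enzyme of another route to anandamide, Gnai3 (0.0560) and the calretinin gene Calb2 (0.0591). With 4 libraries such likeness is a description only.

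Outside the 7, a list of 44 further genes of the pathway was read from the same fit, and 38 of them were tested. None passed, with 0 called at an adjusted p (smallest 0.685 in edgeR's quasi-likelihood test), beside 0.0114% of all tested genes. At an unadjusted p below 0.05 there was 1, where the share over all tested genes was 5.09%. Of these 38, 28 had a lower and 10 a higher mean in isolated libraries, with a median log2 fold change of -0.08. Over all tested genes 48.8% had a lower mean. With library totals as the only scaling 23 of the pathway genes were lower, and without isolated replicate 2 it was 22. In 12 of the 38 the groups did not overlap with isolated below, as for 16.3% of all tested genes, and in 3 with isolated above, as for 17.4%.

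The gene with the unadjusted p below 0.05 was Gnai1, one of the Gi alpha subunits through which CB1 acts. It measured 102 and 95.3 CPM in group-housed and 86.7 and 77.4 CPM in isolated libraries, without overlap. The log2 fold change was -0.27 (SE 0.07, edgeR adjusted p = 0.685). Of the 5 Gi/o alpha genes 4 had a lower mean, and the most abundant per length, Gnao1, the main Go subunit of brain, was level at 0.01 on the log2 scale.

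Among 12 genes upstream of 2-AG production 9 had a lower mean in isolated libraries. Chrm1, the M1 muscarinic receptor gene, had the highest fold change of this list, with 5.11 and 5.40 CPM in group-housed and 5.78 and 7.36 CPM in isolated libraries. Its log2 fold change was 0.32 (edgeR adjusted p = 0.979), but 0.48 without isolated replicate 1 and 0.14 without isolated replicate 2. Gna11, a Gq-family alpha subunit and the most abundant of this list per length, had a log2 fold change of -0.01.

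Of the 6 CB1-binding proteins and lipid carriers 5 had a lower mean, and for 4 the isolated libraries lay below, as they did for 16.3% of all tested genes. Fabp5, a fatty acid binding protein that carries anandamide inside cells, measured 111 and 111.5 CPM in group-housed and 90.2 and 107 CPM in isolated libraries. Its log2 fold change was -0.17 (edgeR adjusted p = 0.979), but it was -0.06 when isolated replicate 1 was left out and -0.30 when isolated replicate 2 was. The related Fabp7, a carrier of glial cells and the most abundant of this list per length, had a log2 fold change of -0.16, and -0.03 and -0.32 when these libraries were left out in turn. Cnrip1, which encodes a protein binding the CB1 tail, had one of 0.02.

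Of the other enzymes, 9 of 13 tested were lower and 4 higher, with a median log2 fold change of -0.01. Gde1, a phosphodiesterase of an alternative anandamide route and the most abundant of them at 104.9 RPKM, had a log2 fold change of -0.01. The extremes were scarce transcripts. Gdpd3 held 15 to 30 counts a library (log2 fold change 0.26) and Ptpn22 35 to 43 (-0.30), each with an edgeR adjusted p = 1.0. Ptgs2, the inducible cyclooxygenase that can oxidise 2-AG, held 7 to 17 counts and was not tested.

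Of the receptors other than CB1, 5 of 7 held too few counts to be tested. The CB2 gene Cnr2 held 3 to 9 counts a library, the vanilloid receptor gene Trpv1 7 to 10 and the nuclear receptor gene Pparg 4 to 10. For Gpr119 there was 1 count in all. Gpr18 had 0 counts in each library, which allows a level of up to 0.113 to 0.146 CPM. The lipid receptor gene Gpr55, at 11 to 29 counts, was tested and had a log2 fold change of 0.77 (edgeR adjusted p = 0.979), which was 0.29 without isolated replicate 2. Ppara, a nuclear receptor for acylethanolamides, was the most abundant of this list by counts, at 92 to 108, and had a log2 fold change of -0.18 (edgeR adjusted p = 1.0), which was -0.12 without isolated replicate 1.

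**Figure D3:**
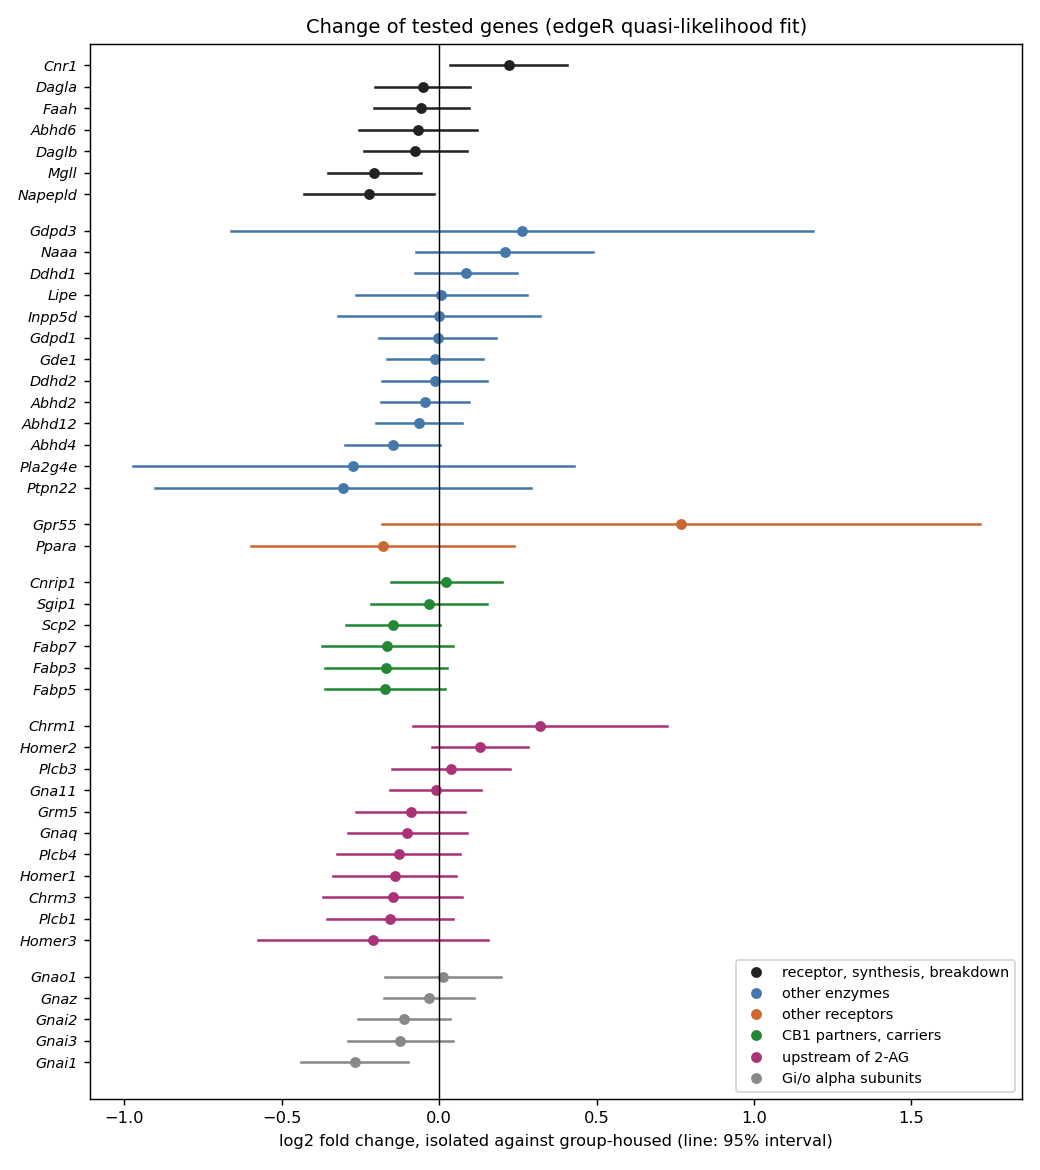
Log2 fold change of isolated against group-housed libraries with its 95% interval, for the 7 genes and tested genes of the wider pathway, ordered within each list. Cnr1 at 0.22, Mgll at -0.21, Napepld at -0.22 and Gnai1 at -0.27 are the plotted genes whose interval leaves out 0.

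Markers of the adjoining medial habenula and thalamus had median log2 fold changes of 0.41 and -0.44, larger than the fold change of any of the 7 genes, although single markers such as Tac1 (0.16) and Tcf7l2 (-0.02) differed less. Medial habenula markers summed to 1599 to 1681 CPM over 9 genes in group-housed and 1991 to 2002 CPM in isolated libraries, with 8 of 9 higher. The 2 genes called in the whole transcriptome were both on this list. Thalamic relay markers summed to 1268 to 1410 and 978 to 1197 CPM, with 10 of 10 lower. Mgll and Napepld lay lower, as did these thalamic markers. The astrocyte markers were lower too, with 7 of 8 genes lower. They summed to 4548 to 4907 CPM in group-housed and 4395 CPM in both isolated libraries. All 8 oligodendrocyte markers had a lower mean, with sums of 11910 to 12840 and 9769 to 11470 CPM, and all 7 microglia markers, with sums of 304 to 342 and 292 to 297 CPM. The part of thalamic neurons or of these glial cells in the Mgll and Napepld values was not tested.

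Cnr1 is abundant in forebrain interneurons, so hippocampal and cortical markers were read beside it. Of 11 such genes 8 were tested, with 4 higher and 4 lower, and the list summed to 271 to 274 CPM in group-housed and 288 to 290.0 CPM in isolated libraries. For 3 of the 8 both isolated libraries lay above, an order that 17.4% of all tested genes showed. These 3 were the transcription factor genes Neurod2 (log2 fold change 0.86, edgeR adjusted p = 0.377) and Neurod1 (0.47, edgeR adjusted p = 0.256), and Fibcd1 (0.33, edgeR adjusted p = 0.377). For 2 of the 8 both lay below, as for 16.3% of all tested genes. These 2 were Wfs1 (-0.03) and Cck, carried by the interneurons richest in CB1 (-0.36, edgeR adjusted p = 0.369). Emx1, a defining forebrain gene, was near 0 at 0.0761 to 0.156 CPM. Neurod6, at 0.779 to 1.37 CPM, and Tbr1, at 0.566 to 0.779 CPM, were scarce too. The largest parts of the sum were Fibcd1 (78.4 to 105 CPM), Prox1 (51.5 to 63.7 CPM) and Wfs1 (58.2 to 60.7 CPM). The sum is therefore no measure of hippocampal or cortical cells. The part of such cells in the Cnr1 value was not tested. General neuronal markers summed to 4040 to 4232 and 3826 to 4165 CPM, with 6 of 7 lower. Choroid plexus and ependyma markers varied within both groups, from 43.9 to 146 CPM in group-housed and 60.6 to 107.8 CPM in isolated libraries, and endothelial markers summed to 73.7 to 81.7 and 75.8 to 83.4 CPM.

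**Figure D4:**
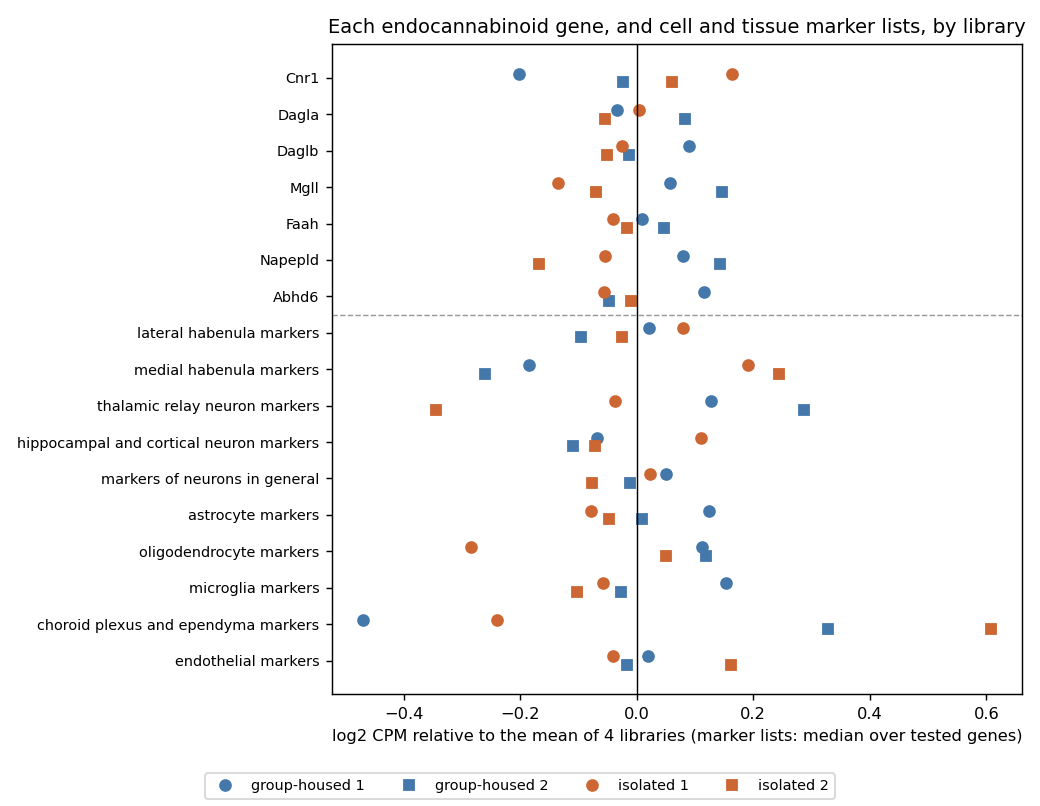
Log2 CPM of each of the 7 genes relative to its mean over the 4 libraries (above the dashed line), and the median of the same over each marker list (below it). Blue marks group-housed and orange isolated libraries. The 7 genes span -0.20 to 0.16, and thalamic markers reach -0.34 in isolated replicate 2. Choroid plexus and ependyma markers run wider, from -0.47 in group-housed replicate 1 to 0.61 in isolated replicate 2.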

How the data were processed

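The authors deposited raw counts by Ensembl gene, which every test used, and a normalised signal per library, which was each count times 1 constant per library (0.0387 to 0.0499) and served only as another scaling. Tools in the submitters' processing notes are CASAVA, HTSeq, edgeR and TopHat2 2.1.1 with the build GRCm38, without roles. The annotation release and whether counting used strand were not given in the sources used here. Libraries were grouped by their titles. Counts were compared with edgeR 4.0.16 (R 4.3.3; filterByExpr, TMM, glmQLFit and glmQLFTest, no covariate, 2-sided, Benjamini-Hochberg at 0.05). The common biological coefficient of variation was 7.20% with 2 residual degrees of freedom. The SE is the log2 fold change over the root of F, and intervals are 95%. Counting floors cover counting error only. DESeq2 1.42.0, limma 3.58.1 and other alternatives are in the closing section. Lengths, positions and overlaps came from GENCODE release M21, and promoters from RefSeq. Library pairs within a group differed by more than sampling noise (chi-square per degree of freedom 5.14 and 7.62). The fit was tested on simulated data.

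The 7 genes, the pathway lists and the marker lists were chosen with earlier results of these data known. Pathway genes were named where the unadjusted p was below 0.05, or where the fold change was highest or lowest, or the RPKM highest, in their list, together with the 3 genes most like Cnr1 and Mgll. Counts and levels of untested receptors, Ptgs2 and single markers were picked after they were seen. Some genes of the lists enter the counts, sums and medians, but their own values are not reported here.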

Additional observations from a re-analysis of the deposited data

How the results depend on the processing

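None of the 7 genes was called under any of the 13 alternatives tried (other scalings, tests and filters, the replicate block, and each library left out). Their directions held in all of these except for Abhd6, which was 0.016 without group-housed replicate 1 (range with a library left out -0.16 to 0.016). Over the alternatives the adjusted p ran from 0.239 to 1.0 for Mgll, 0.379 to 1.0 for Cnr1 and 0.389 to 1.0 for Napepld. The number of genes called in the whole transcriptome, 2 in the fit reported, was 52 with DESeq2, 82 with edgeR's exact test, 15 with no filter on low counts and 64 with the replicate block, and 1 to 221 with a library left out (221 without isolated replicate 1). The causes were not tested. The labels do not say that a replicate number marks a shared batch. Deviations of same-numbered libraries correlated at 0.141 across genes, which are not independent. With the block the log2 fold changes were -0.20 for Mgll and 0.22 for Cnr1, close to those without it.

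Per longest annotated transcript the levels were 9.45 RPKM for Cnr1, 9.14 for Daglb, 34.1 for Mgll, 9.41 for Faah and 16.3 for Abhd6. Per longest protein-coding transcript, a length added after seeing the data, they were 9.45, 9.58, 34.1, 13.6 and 16.3 RPKM, since the divisor is shorter. The mean ratios over the 4 libraries, 1.74 for Mgll to Dagla, 1.25 for Faah to Napepld and 3.31 for Dagla to Daglb, became 2.17, 1.77 and 1.72 with the first and 2.17, 2.56 and 1.64 with the second. Small changes of other pathway genes changed sign. With library totals alone Gde1 was 0.0068 and Gna11 0.0078. With a library left out the log2 fold change ran from -0.071 to 0.041 for Gde1, -0.27 to 0.96 for Gdpd3, -0.049 to 0.094 for Cnrip1, -0.051 to 0.022 for Gna11 and -0.046 to 0.067 for Gnao1.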
